A study of Rattus norvegicus with 2 samples.

Results

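The genes studied were those of oxytocin (Oxt) and vasopressin (Avp) and of 3 of their receptors, Oxtr, Avpr1a and Avpr1b, in the hypothalamus of male Wistar rats. They were chosen by gene symbol, as 5 of the 14871 genes that the platform annotation names on the array. The array carried 1 probe each for Oxt, Oxtr and Avpr1b and 2 each for Avp and Avpr1a. The vasopressin receptor Avpr2, also with 2 probes, is given for comparison. Rats were 21 days old and newly weaned when they entered the study, and each was caged singly behind screens. In each of 3 conditions there were 4 animals. Tickled rats received a hand stimulation that mimics rough play and evokes calls near 50 kHz, light-touched rats a gentle contact that in general does not, and the third group no stimulus. Sessions took place each weekday over 4 weeks, with 15 s of stimulation alternating with 15 s of rest.

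Hypothalamic RNA of tickled rats, labelled with Cy5, was set against that of rats without stimulus on 1 array and against that of light-touched rats on another, with the control in Cy3 each time. There was no replicate array and no dye swap, and it is not stated whether the 4 animals were pooled or whether both arrays carried one tickled RNA. No difference between conditions could therefore be tested or set against the spread between animals, and no p-value is given. Ratios are read as tickled over control, the likely but unstated direction; if they were formed the other way, each ratio becomes its inverse. A gene counts as differing by size where its ratio is 1.5 or more, or 0.667 or less. The SD between probes that share a gene was 0.18 log2 units, or 1.13-fold, on either array, and this is the only measure of error in the data. In whole tissue, fewer cells of a type and less RNA per cell cannot be told apart, and a ratio says nothing of how strongly a gene is expressed.

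Oxytocin and vasopressin are closely related short peptides, each cut from a larger precursor that also yields a carrier protein, a neurophysin. Large neurons of the paraventricular and supraoptic nuclei make them and release them into the blood from the posterior pituitary, oxytocin for milk ejection and labour and vasopressin for water retention. Smaller neurons release them within the brain, where they act on social behaviour, and vasopressin neurons of the suprachiasmatic nucleus follow the daily clock. Both genes lie side by side on rat chromosome 3 in opposite orientation. Their receptors are G protein-coupled: Oxtr binds oxytocin, Avpr1a is the main vasopressin receptor of the brain, Avpr1b is best known from the corticotroph cells of the pituitary, and Avpr2 from the kidney.

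The sequences before the starts of both peptide genes are shown because these neighbours were the 2 members with low ratios against no stimulus. Each is the 250 bases upstream of the gene's annotated start, 5′ to 3′ on the gene's own strand, from RefSeq on the GRCr8 build. The Oxt sequence is chr3:138235504-138235753 on the plus strand and the Avp sequence chr3:138248523-138248772 on the minus strand. Capitals in Oxt mark the nuclear receptor motif TGACC on either strand, and in Avp the E-box CACGTG, a motif bound by clock proteins among others.
Oxt: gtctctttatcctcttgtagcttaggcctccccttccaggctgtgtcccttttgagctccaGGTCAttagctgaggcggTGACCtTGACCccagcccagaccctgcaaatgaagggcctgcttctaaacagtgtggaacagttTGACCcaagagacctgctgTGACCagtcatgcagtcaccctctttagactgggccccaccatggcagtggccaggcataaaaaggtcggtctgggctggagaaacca
Avp: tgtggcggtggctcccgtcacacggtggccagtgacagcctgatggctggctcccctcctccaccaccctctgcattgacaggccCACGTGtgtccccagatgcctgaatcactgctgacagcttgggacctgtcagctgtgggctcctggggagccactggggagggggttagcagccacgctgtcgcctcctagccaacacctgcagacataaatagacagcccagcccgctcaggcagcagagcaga

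The Oxt window held 5 matches to TGACC, read on both strands, at positions -189, -171, -165, -107 and -88 from the gene start. At least 1 match was present in 35.4% of 33469 promoter windows of the same length, and 5 or more in 0.0508%. The Avp window held none of these, but 1 E-box, at -165, which 5.59% of all windows contain. It also held 1 match to the broad AP-1 pattern TGANTCA, in which N is any base. This match, TGAATCA, began at -145, and 6.34% of windows match the pattern. The TATA-like letters CATAAA, searched for after the sequences were seen, began at -32 in Oxt, -40 in Avp and -27 in Avpr1b, and occurred in 11.4% of windows. Oxtr had 2 TGACC matches and Avpr1a a TATAAA match, while TGACGTCA, the cAMP response element, matched none of the 5 windows. These motifs do not overlap one another in the windows shown, and a match is a description of the letters only.

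Vasopressin had the ratio farthest from 1 among the 5 genes. Against no stimulus its 2 probes read 0.47 and 0.55, and against light touch 1.06 and 1.16. Both probes were thus well below 1 on the no-stimulus array and slightly above 1 on the light-touch array. The gene value, the median of the probes on the log2 scale, was 0.508 against no stimulus, or 1.97-fold below 1. Only 12 of the 11881 genes with a value on that array were lower, and 10 of these 12 had a single measured probe. Against light touch the value was 1.109, which 17.7% of genes exceeded.

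**Figure D1:**
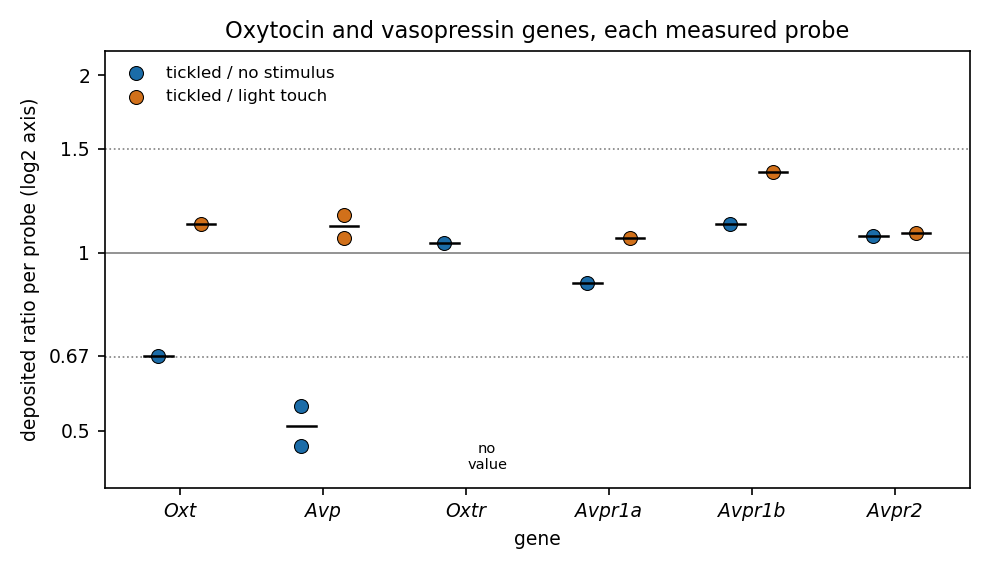
Ratio of each measured probe (points, log2 axis) for the 5 genes and Avpr2 on the no-stimulus (blue) and light-touch (orange) arrays; black bars are the gene value and dotted lines mark 1.5-fold. Avp and Oxt lie at or below 0.67 against no stimulus and between 1.06 and 1.16 against light touch, whereas the receptors lie between 0.89 and 1.37.

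The agreement of the Avp probes could be set beside that of other genes. They differed by 0.23 log2 units, or 1.17-fold, on the no-stimulus array, where the median difference over 2963 genes with 2 measured probes was 0.12 and 75.0% of the pairs differed by less. On the light-touch array they differed by 0.13, beside a median of 0.12. Of the 4354 genes with 2 or more measured probes against no stimulus, Avp was the only gene with every probe 1.5-fold or more below 1, which is 0.023%. On the light-touch array 13 of 4226 such genes were that low (0.308%), and Avp was not among them.

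**Figure D2:**
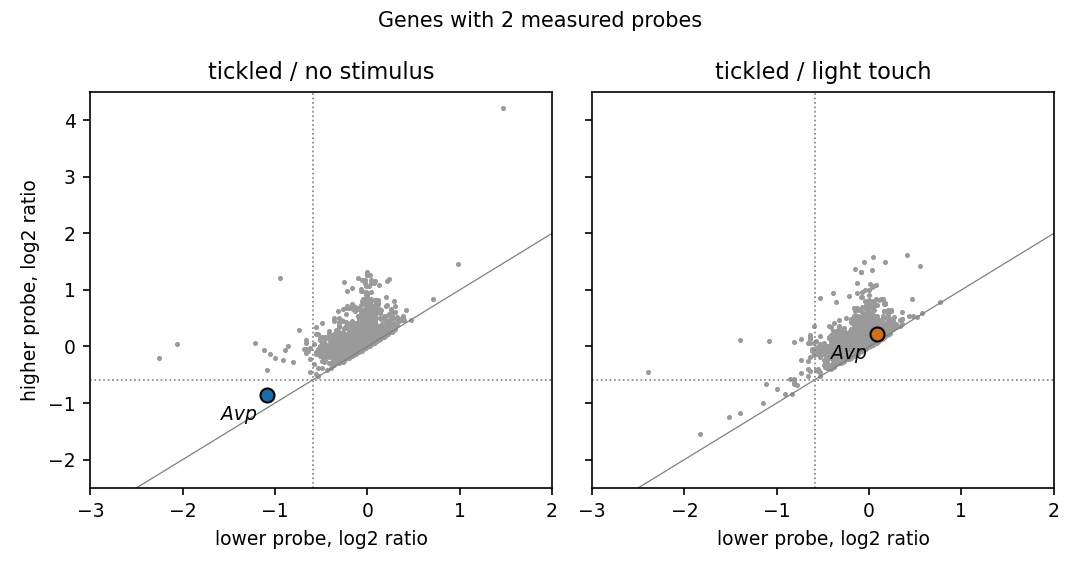
Log2 ratios of the lower (horizontal axis) and the higher probe (vertical axis) of each gene with 2 measured probes, on each array; grey points are genes, the large point is Avp, the line marks equal probes and dotted lines mark 1.5-fold below 1. Against no stimulus Avp stands alone in the lower left corner; against light touch it lies within the main cloud.

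Oxytocin lay on the same side of 1 as vasopressin on each array, but nearer to 1 against no stimulus. Its single probe read 0.67 against no stimulus and 1.12 against light touch. The first value is 1.49-fold below 1 and falls just short of the 1.5-fold limit; rounding of the deposited value allows 0.665 to 0.675, a range that spans this limit. With the local median over neighbouring probe numbers subtracted it was 0.644, past the limit. Only 0.37% of genes, 44 of 11881, were lower than Oxt on that array. The Oxt value was 0.40 log2 units above the Avp value there, 2.2 times the SD between probes of a gene, whereas on the light-touch array the 2 genes differed by 0.01. That SD is for single probes, whereas the Avp value is a median of 2, and the difference between the genes was not tested. Among the neighbours of the Oxt probe by probe number, the median log2 ratio was 0.057 against no stimulus and 0.07 against light touch.

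**Figure D3:**
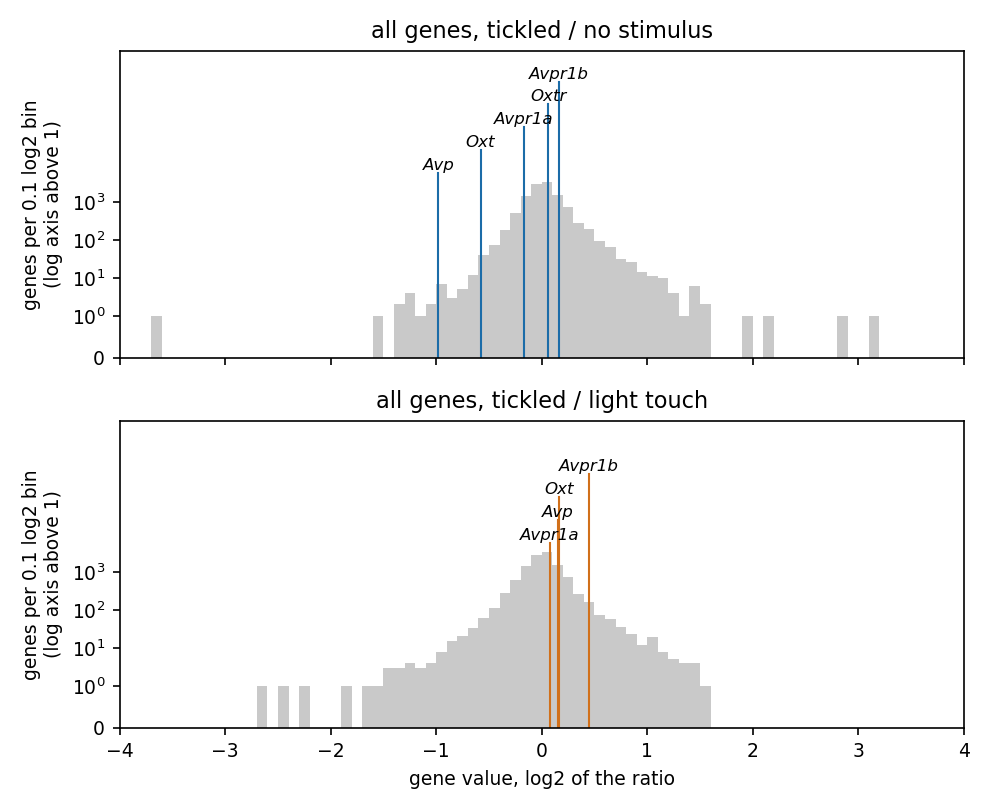
Number of genes per 0.1 log2 units of the gene value on each array (grey, log axis above 1), with lines at the studied genes; line height carries no meaning. Avp and Oxt lie in the sparse lower tail against no stimulus, and all 4 measured genes lie above 0 against light touch, Avpr1b highest.

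The receptor genes lay nearer to 1 than vasopressin and oxytocin did against no stimulus. The oxytocin receptor Oxtr read 1.04 against no stimulus and was without a value against light touch. Avpr1a read 0.89 and 1.06 with 1 of its 2 probes, and the other probe had no value on either array. Avpr1b read 1.12 against no stimulus and 1.37 against light touch, the latter exceeded by 2.55% of genes. The probe of Avpr2 that had values read 1.07 and 1.08. No receptor reached 1.5-fold on either array, and each value rests on 1 probe, so that differences of the order of 1.13-fold are within the spread between probes.

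Counted by size, 1 of the 5 genes, Avp, was 1.5-fold or more below 1 against no stimulus, where 0.362% of all genes were. None of the 5 was 1.5-fold or more above 1 on that array, a size reached by 1.62% of all genes. Against light touch none of the 4 genes with a value was past 1.5-fold in either direction, beside 2.49% of all genes. The median log2 ratio of the 5 genes was -0.17 against no stimulus and that of the 4 was 0.16 against light touch, beside 0.01 over all genes on both arrays.

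Light touch and no stimulus were never on the same array. Their indirect ratio, the no-stimulus array's ratio divided by the light-touch array's, can be read as light touch over no stimulus if both arrays carried one tickled RNA, which is not stated. On that condition Avp had an indirect ratio of 0.459, with 7 of 11534 genes lower, and Oxt 0.598, with 32 lower. An indirect ratio 1.5-fold or more below 1 was seen in 0.711% of all genes. The receptors stood nearer to 1, Avpr1a at 0.84, Avpr1b at 0.818 and Avpr2 at 0.991, and Oxtr had no indirect value.

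The low ratios of Avp and Oxt against no stimulus were not seen in the measured genes around them on chromosome 3. Of the 3 annotated genes on either side, the mitochondrial ribosomal protein gene Mrps26, next to Oxt, read 0.94 on both arrays, and the phosphatase gene Ptpra 1.07 and 1.05. On the other side Ubox5, next to Avp, read 1.01 and 1.04, and Lzts3 0.99 and 0.97. Fastkd5 and the noncoding LOC134486445 had no named probe.

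Genes that make, package and respond to the peptides were described through lists chosen with earlier results of these data known. On the no-stimulus array 2 of the 89 measured list genes were 1.5-fold or more above 1, beside 1.62% of all genes, and 0 were that far below 1, beside 0.362%. Their median log2 ratio was 0.01, as over all genes. Against light touch 7 of 88 were 1.5-fold or more above 1, where 1.57% of all genes were, and 2 were that far below 1, where 0.928% were. The median was 0.03. Every list gene past 1.5-fold, on either array, rested there on 1 measured probe.

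Processing enzymes and granule proteins, which cut the precursors and store the peptides, had median log2 ratios of 0.02 against no stimulus and 0.11 against light touch. On either array 0 of the 12 measured were past 1.5-fold, which is near the share of all genes (1.62% higher and 0.362% lower, and 1.57% and 0.928%). The convertase gene Pcsk2, named after its values were seen, was the highest of the list against no stimulus, at 1.275, and the lowest against light touch, at 0.82. Vgf, a granin-like granule protein, was highest by the mean of both arrays, at 1.2 against no stimulus and 1.1 against light touch. Pcsk1n, an inhibitor of the convertase that cuts prohormones, was lowest, at 0.915 and 0.98.

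Peptides and enzymes found in the same large neurons, or beside them, went several ways. Prodynorphin (Pdyn), an opioid precursor stored with vasopressin, read 0.88 against no stimulus and 1.57 against light touch. Cholecystokinin (Cck), which occurs with oxytocin, read 1.94 and 0.51, and Cartpt, an appetite peptide, 1.32 and 1.94. Most markers of thalamus and cortex, given below, had the same directions as Cck, and the cells its RNA came from were not tested. Calb1, a calcium buffer, was lowest by the mean of both, at 0.99 and 0.91. Corticotropin-releasing hormone (Crh), which acts on the pituitary together with vasopressin, read 0.85 and 1.25, and thyrotropin-releasing hormone (Trh) 0.81 and 1.17; both were named after their values were seen. The list medians were 0.13 and 0.11.

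Transcription factors of the paraventricular and supraoptic nuclei had 0 of 8 past 1.5-fold against no stimulus, near the share of all genes (1.62% higher and 0.362% lower). Against light touch 1 of 7 was 1.5-fold or more above 1, beside 1.57% of all genes, and 0 were that far below, beside 0.928%. The median log2 ratios were -0.05 against no stimulus and 0.12 against light touch. Pou3f2, needed in mice for these neurons to form, was lowest by the mean of both arrays, at 0.80 and 1.04. Otp, needed for the same lineage, was highest, at 1.03 against no stimulus and 1.61 against light touch. Sim1, another factor of that lineage, read 0.69 against no stimulus, the lowest of the list, and had no value against light touch; it was named after its value was seen.

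Genes of the suprachiasmatic nucleus, where vasopressin neurons lie beside those of vasoactive intestinal peptide, went both ways. Against light touch 3 of 12 were 1.5-fold or more above 1 and 1 was that far below, beside 1.57% and 0.928% of all genes. Against no stimulus 1 of 11 was that far above 1 and 0 were below, beside 1.62% and 0.362%. Vip itself read 2.24 against no stimulus and 0.91 against light touch, with 1 of its 2 probes giving a value. Lhx1 read 1.16 and 1.65, Six6 1.377 and 1.53, both transcription factors of this nucleus, and the signalling peptide Prok2 read 1.52 against light touch with no value on the other array. The 2 probes of Six6 read 1.65 and 1.15 against no stimulus. Rgs16, a brake on G protein signalling that is also expressed in the thalamus, read 1.16 and 0.57. Syt10, a vesicle protein gene, was lowest by the mean of both, at 0.71 on each array. The medians were 0.08 on both arrays.

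**Figure D4:**
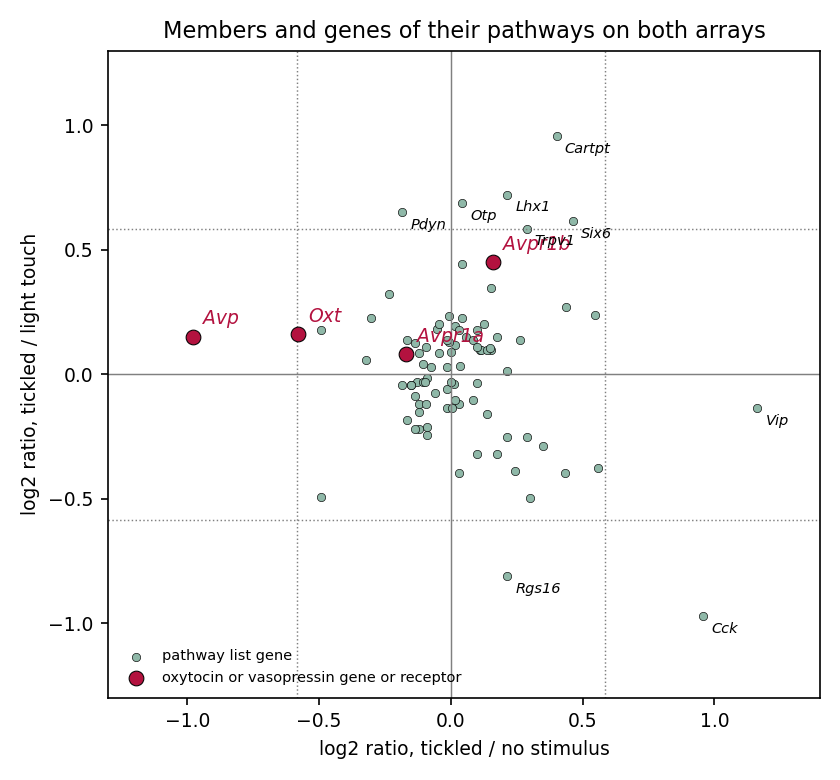
Log2 gene values against no stimulus (horizontal axis) and against light touch (vertical axis) for the pathway list genes with a value on both arrays (small points) and the 4 studied genes with both (large points); dotted lines mark 1.5-fold and list genes past it are named. No list gene lies as far left as Avp or Oxt.

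Genes of oxytocin release and breakdown had medians of 0.01 and 0.11. Against no stimulus 0 of 11 were past 1.5-fold, near the share of all genes (1.62% higher and 0.362% lower). Against light touch 1 of 11 was 1.5-fold or more above 1, beside 1.57% of all genes, and 0 were that far below, beside 0.928%. The 1 gene was Trpv1, a channel gene linked to the sensing of osmolality in these neurons, at 1.22 against no stimulus and 1.5 against light touch. Its only probe thus lay at the limit. The prolactin receptor Prlr, present on oxytocin neurons, was lowest by the mean of both, at 0.71 and 1.13. Cd38, needed in mice for oxytocin release, had no named probe and is mentioned outside the rule for named genes.

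Signalling genes downstream of the receptors had median log2 ratios of -0.01 against no stimulus and -0.10 against light touch, where 20 of 27 read below 1, beside 46.1% of all genes. On either array 0 of the 27 were past 1.5-fold, which is near the share of all genes (1.62% higher and 0.362% lower, and 1.57% and 0.928%). Among the lower values against light touch were those of Rgs4, a relative of Rgs2, at 0.709, the phospholipase gene Plcb4 at 0.76 and Itpr1, a calcium release channel, at 0.80, with 1.233, 1.35 and 1.13 against no stimulus; these 3 were named after their values were seen. The highest by the mean of both was Rgs2, a brake on the G protein these receptors use, at 1.03 and 1.17, and the lowest the calcium-dependent kinase Camk2a, at 1.02 and 0.759. The list of Avpr2 and water transport had 0 of 6 past 1.5-fold on either array, again near those shares of all genes. Its medians were 0.05 and 0.10, with the water channel Aqp4 highest at 1.109 and 1.074 and the kinase Prkaca lowest at 0.90 and 0.97. Among sex steroid genes the progesterone receptor Pgr, at 0.97 and 1.15, was the only 1 of 4 with a value on both arrays.

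Likeness to Avp was measured as the Euclidean distance in the 2 log2 ratios, over 4147 other genes with values on both arrays from 2 or more probes. It rests on 2 arrays and is a description. The nearest was Zfyve9 at a distance of 0.29, with ratios of 0.594 and 0.975, but its probes read 0.75 and 0.47 against no stimulus. Next were Cnot6l at 0.33, with ratios of 0.63 and 1.019 and probes of 0.96, 0.59 and 0.63 against no stimulus, and, at 0.45, the neuropeptide gene Nts (neurotensin), with 0.695 and 1.07 and probes of 0.70 and 0.69 against no stimulus. Hspa1a, at 0.47, has a nearly identical copy that its probes may not separate, and Rnpep, at 0.48, had probes of 0.43 and 1.04.

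Markers of neighbouring regions differed between the groups as well, and some lay on the same side of 1 as Avp and Oxt on at least 1 array. Over all genes, 45.1% read below 1 and 51.8% above 1 against no stimulus, and 46.1% and 51.3% against light touch. All 6 measured markers of septum, preoptic area and basal forebrain were 1.5-fold or more below 1 against no stimulus, beside 0.362% of all genes. They ran from 0.35 for Lhx8 to 0.50 for Lhx6, with Gnrh1 at 0.38, and each rested on 1 measured probe. Against light touch, where Avp and Oxt were above 1, these 6 also read below 1, from 0.38 to 0.91. There 3 of them were 1.5-fold or more below, beside 0.928% of all genes. Most genes in the list of thalamus and cortex markers lay on the opposite side of 1 from Avp and Oxt on each array. Against no stimulus 9 of 10 were above 1, up to 3.99 for Chrna3, and 5 were 1.5-fold or more above, beside 1.62% of all genes. Against light touch 9 of 10 were below 1, down to 0.18, and 7 were 1.5-fold or more below, beside 0.928%. Tbr1 read below 1 on both arrays, at 0.71 and 0.85, and Neurod6 lay near 1, at 1.04 and 0.97, both named after their values were seen. Which tissue the values of this list came from was not tested. Hypothalamic patterning genes had a median log2 ratio of 0.01 over 11 genes against no stimulus, and of 0.57 over 9 genes, all above 1, against light touch. This marker list shares Otp, Sim1, Six6 and Lhx1 with the pathway lists above. Of these, Otp, Six6 and Lhx1 were already counted there as 1.5-fold or more above 1 against light touch. The thalamus and cortex list likewise shares Rgs16 and Calb2 with the pathway lists. Rgs16 was already counted there as 1.5-fold or more below 1 against light touch. Pituitary markers were 6 of 6 above 1 against no stimulus, 3 of them by 1.5-fold or more, beside 1.62% of all genes. The highest was Tshb at 9.08, and Cga had probes of 18.68 and 2.76. Lhb, Pitx1 and Tbx19 lay near 1, at 1.13, 1.09 and 1.12. Cga and these 3 were named after their values were seen. Against light touch 5 of 6 were above 1, the highest 1.42. Choroid plexus markers ranged from 0.08 to 1.10 and from 0.39 to 1.07 and those of ependyma and tanycytes from 0.94 to 1.52 and from 1.018 to 1.67. The part of these differences in the ratios of Avp and Oxt was not tested.

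**Figure D5:**
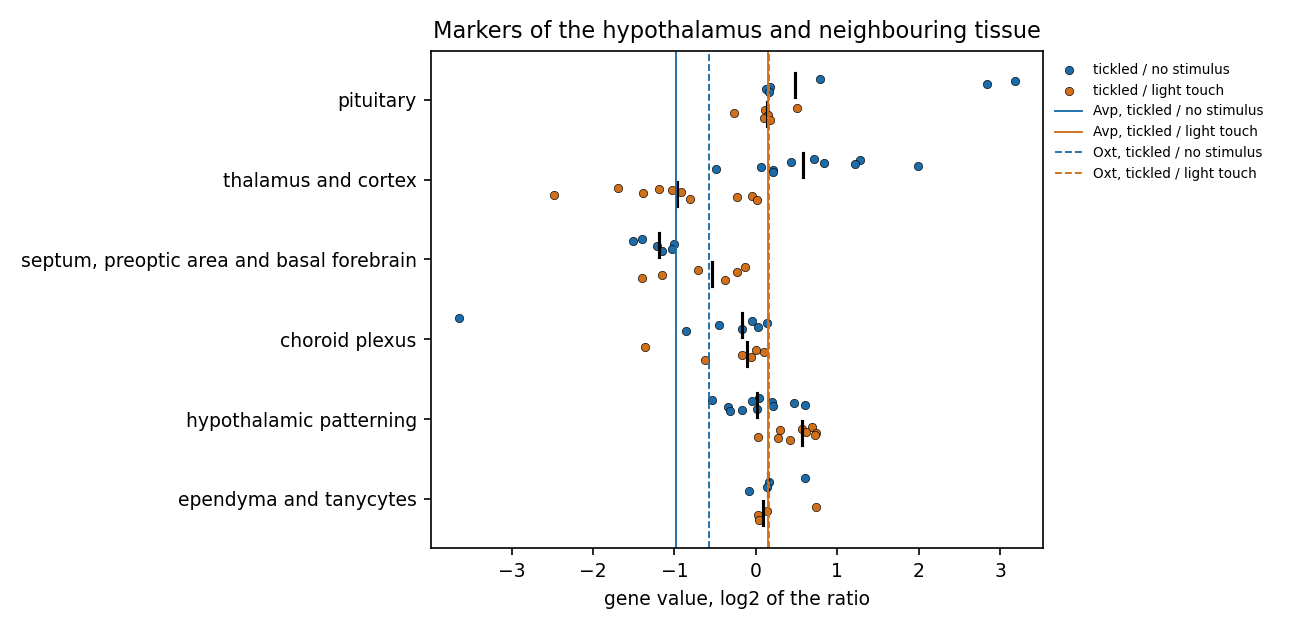
Log2 gene values (horizontal axis) of tissue markers by list on the no-stimulus (blue) and light-touch (orange) arrays, with black bars at list medians and vertical lines at Avp (solid) and Oxt (dashed). Septum, preoptic and basal forebrain markers lie at or left of the Avp line against no stimulus, and hypothalamic patterning genes lie right of 0 against light touch.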

How the data were processed

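Each array column of the authors' deposited table holds a linear ratio of the dye channels for every probe with a value, to 2 decimals. Per the labels' protocols, cRNA made from 500 ng of total RNA was coupled to Cy3 or Cy5. Both columns had a median of 1.00 and were thus already centred. How images were read, background was corrected, values were normalized and probes were left empty is not given in the sources used here. Of 44290 probes, 30904 and 30133 had a value on the no-stimulus and light-touch arrays (11881 and 11745 genes). The platform annotation gave 1 symbol for 23535 probes, several for 48 and none for 20707. Symbols were updated by Entrez identifier through the RefSeq gene table of GRCr8, which held 23488 of the probes' identifiers; the identifier of the Avpr1b probe was not among them, and its promoter was matched by symbol. Gene values were medians of log2 ratios. Precision is limited by having 1 array per comparison. Python 3.11.15 with pandas 2.3.3 was used, and the steps were tested on simulated data. Alternatives were a running median over 501 measured probes subtracted, the middle 80% of probe numbers alone, means of probes, and probes with a value on both arrays.

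The genes studied and the lists were chosen with earlier results of these data known. Genes named were the 5 and Avpr2, list genes past 1.5-fold on either array, in each list the gene with the highest and the lowest mean log2 ratio over both arrays, the 3 annotated genes on each side of Oxt and Avp, and the 5 genes nearest in pattern to a studied gene past 1.5-fold, and tissue markers beside a result they moved with; exceptions are marked.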

Additional observations from a re-analysis of the deposited data

How the results depend on the processing

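Across the 64 values recomputed under the 4 alternatives, no ratio of the 5 genes moved by as much as the SD between probes of a gene, and no count of list genes past 1.5-fold moved by more than 1.5 times. The ratio of Avp against no stimulus was 0.511 with the local median subtracted and 0.508 under the other 3. Those 3 could not change it. The mean of its 2 probes equals their median, and both lie in the middle 80% and have values on both arrays. For a gene with 1 measured probe, those 3 can only return the same ratio or none. Only the local median could therefore move a ratio of the 5 genes. Oxt passed the 1.5-fold limit, at 0.644, with the local median subtracted, and had no value with the middle 80% of probe numbers, since its only probe lies outside them. The list genes 1.5-fold or more above 1 against light touch numbered 5 to 7, while the share of all genes that high was 1.57% with every probe and 0.992% with the middle 80% alone. No paired analysis was possible because each comparison had 1 array. Signal over background was not used here, so weak probes could not be told from strong ones, and the values of Oxt and of every receptor rest on 1 probe.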
